A study of Homo sapiens with 60 samples.

Results

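The 32 genes described here are established transcriptional targets of p53, chosen by symbol for that function. All 32 were found among the 60675 gene identifiers of the count table, and all passed the filter on low counts. RNA was measured in A549, an established human lung carcinoma line. Cells received vehicle or an extract for 24 h. There were 8 herbal extracts, each given at a low, a medium and a high dose, and 60 libraries in all. Vehicle had 3 libraries, as did each dose of Zizyphi Semen, Longan Arillus, Schisandrae Fructus, Liriopis seu Ophiopogonis Tuber and Yijin-tang. Soshiho-tang had 2 libraries per dose, numbered 2 and 3, while Polygalae Radix and Aucklandiae Radix had 1 per dose. Yijin-tang and Soshiho-tang were hot-water extracts of herbal mixtures, and the other extracts were made with aqueous ethanol from single herbs. Doses were 20, 100 and 500 µg/mL, except 15.2, 76 and 380 µg/mL for Polygalae Radix and 14.8, 74 and 370 µg/mL for Aucklandiae Radix. Vehicle was DMSO at 0.1% in the labels and at 2% in the series' design text, and no DMSO share is given for the extract libraries. The extracts are named by their first word below.

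The library labels carry a set number, and the vehicle libraries have a set of their own. Yijin and Soshiho share set 8, Liriopis and Schisandrae set 9, Longan and Zizyphi set 10, and Polygalae and Aucklandiae set 11. In every comparison with vehicle the library set and the extract therefore cannot be told apart, whereas doses of an extract and the extracts of a set can be compared within a set. All vehicle comparisons also share the same 3 vehicle libraries. The labels do not say that the libraries of a group came from separate cultures, so each p-value reflects differences among libraries that may be only technical.

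p53 is a transcription factor that DNA damage and other stresses stabilise. It binds a pair of half-sites near its target genes and raises their transcription, which halts the cell cycle, repairs DNA or starts apoptosis. One of its targets, MDM2, encodes the ubiquitin ligase that degrades p53, so the response limits itself. CDKN2A, which encodes an inhibitor of MDM2, is deleted in A549. CDKN2A was at 0 counts in the 3 vehicle libraries and at no more than 0.168 CPM (the usual depth-scaled count, with TMM factors throughout) in any library.

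Libraries held 18002661 to 33831747 counts. The summed level of 8 A549 and lung epithelial markers ran from 3025 to 22981 CPM, that of 4 defining alveolar type 2 genes was at most 0.619 CPM, and endothelial markers summed to at most 0.519 CPM. Fibroblast markers summed to 17.7 to 43.1 CPM and leukocyte markers to 5.34 to 35.5 CPM. The markers of each list disagreed. In vehicle the fibroblast sum was mostly COL1A1 and COL3A1 (means 29.6 and 5.06 CPM), and COL1A2 and DCN were each at 0.0117 CPM. The leukocyte sum was mostly CD68 (12.3 CPM in vehicle), and PTPRC and CD3E were at most 0.0847 and 0.0702 CPM in any library. Soshiho medium replicate 3 and Longan low replicate 3 stood apart. The slope of their log2 counts on transcript length was −0.42 and −0.49, against −0.10 to 0.10 in the other 58 libraries. Results are given from the fit of all 54 libraries of the 19 replicated groups, and beside it from the 52 libraries that remain without that pair. Among the 52, Soshiho medium keeps only its replicate 2. Counts of groups with 52 libraries therefore include a group that has no replicate there. The common dispersion was 0.0173 with 54 libraries and 0.00244 with 52.

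Against vehicle, the median log2 fold change over the 32 members was negative in all but 1 of the 18 extract and dose groups with replicates. It was −0.17 to −0.018 in 17 groups and 0.08 at the high dose of Soshiho. Medians over all genes are not set beside these values, so they do not set the members apart. A member was called at an adjusted p below 0.05 (edgeR's quasi-likelihood test, Benjamini-Hochberg over 17826 genes). In Yijin, 2 of 32 members were lower at each dose, where 0.258% (high), 0.0617% (medium) and 0.0841% (low) of all genes tested were lower. In Soshiho, 7 members were higher and 1 lower at the high dose, beside 3.02% and 2.05% of all genes. The Soshiho medium dose had 4 lower members beside 0.707%, and the low dose 2 beside 0.028%. Of the 2 Soshiho medium libraries 1 stands apart in transcript length, so these counts do not show a difference between the doses. Soshiho high was thus the only group of set 8 with a member called higher with 54 libraries. In Liriopis, 2 (high), 3 (medium) and 3 (low) members were lower, beside 0.202%, 0.135% and 0.129%. In Schisandrae, 4, 3 and 3 members were lower, beside 0.415%, 0.196% and 0.196%. Longan high and medium each had 4 lower members, beside 0.488% and 0.774%. Longan low had 4 higher and 13 lower members, beside 21.5% and 14.4% of all genes. That group holds 1 of the libraries that stand apart, and its calls are treated with that library further on. In Zizyphi, 4 (high), 7 (medium) and 6 (low) members were lower, beside 1.82%, 2.82% and 2.58%. Outside Soshiho high and Longan low, no member was called higher than vehicle with 54 libraries.

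With 52 libraries more members passed the test, and so did more of all genes. Lower members then numbered 5, 7 and 8 in Yijin (high, medium, low), beside 4.13%, 1.77% and 2.16% of all genes. They numbered 5 and 6 in Soshiho (high, low), beside 11.3% and 2.13%. Soshiho medium, with only replicate 2 left in this fit, is not counted. The counts were 10, 7 and 11 in Liriopis, beside 4.65%, 2.28% and 2.35%, and 9, 11 and 13 in Schisandrae, beside 4.92%, 2.66% and 3.98%. They were 14, 13 and 16 in Longan, beside 8.26%, 9.85% and 13.9%, and 15, 17 and 17 in Zizyphi, beside 12.8%, 15.1% and 14.6%. Higher members numbered 12 at Soshiho high, beside 10.2%. A single member was higher in 8 other groups, beside 3.04%, 1.11% and 1.45% in Yijin (high, medium, low), 2.62% and 1.38% in Liriopis and 4.23% and 1.65% in Schisandrae (high, medium), and 12.1% in Zizyphi low. That member was XPC in 7 of the 8 and BBC3 at Schisandrae high.

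**Figure D1:**
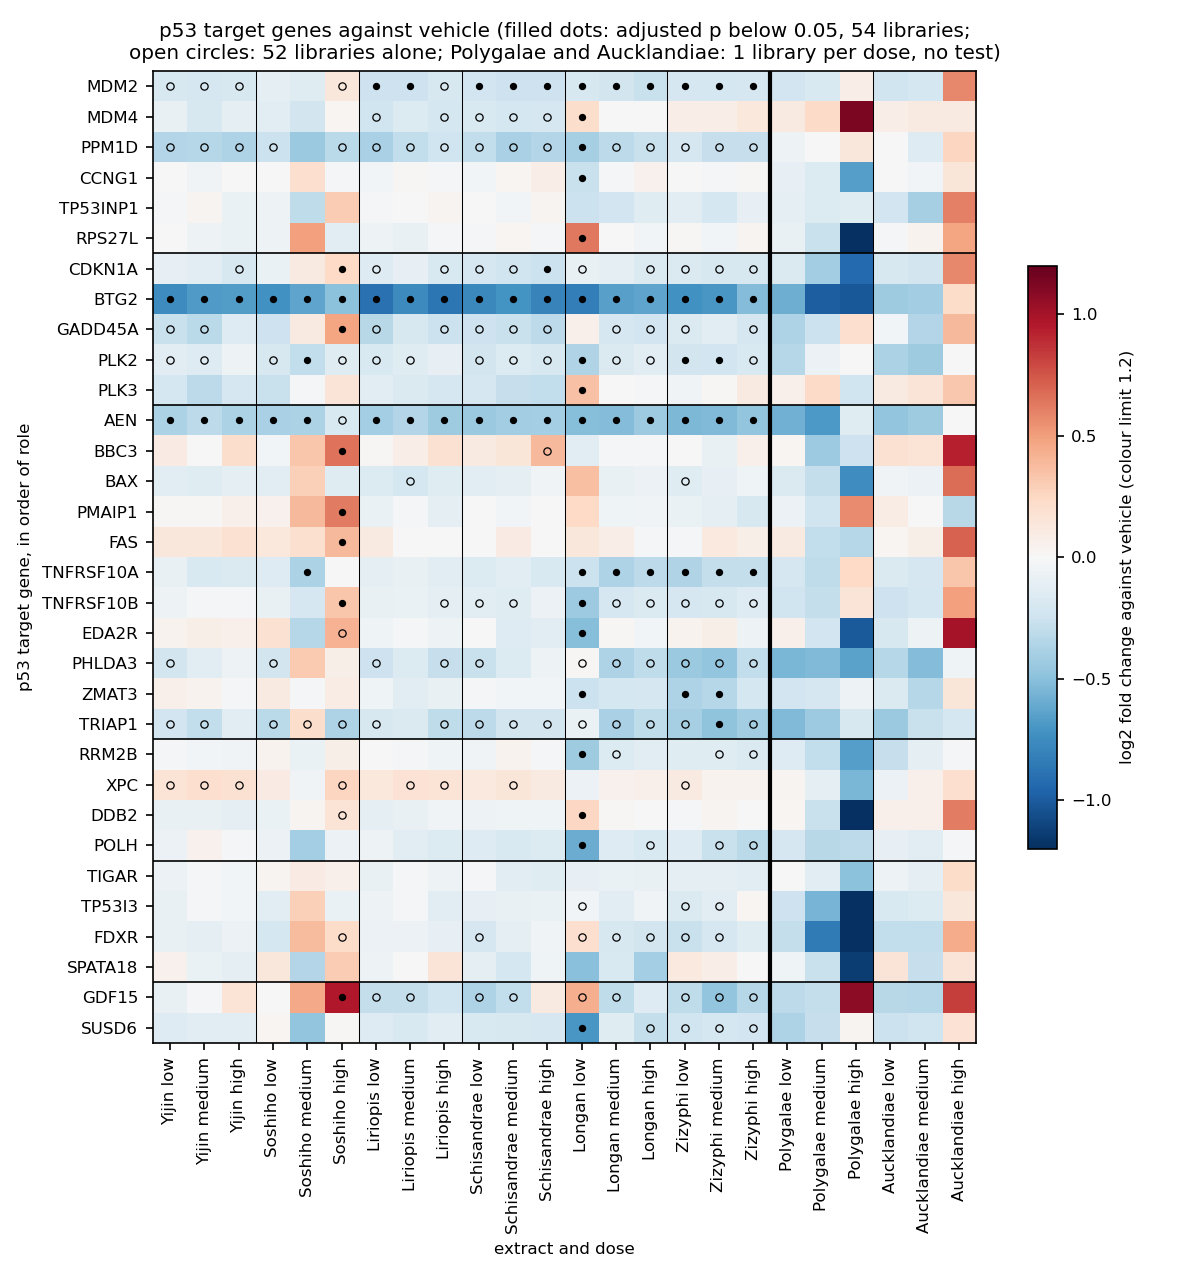
Log2 fold change against vehicle of the 32 p53 target genes (rows, in order of role) in each extract and dose (columns), with blue lower, red higher and the colour limited at 1.2. Filled dots mark an adjusted p below 0.05 with 54 libraries and open circles those passing with 52 libraries alone. The last 6 columns are log2 ratios of single libraries with no test, and the BTG2 and AEN rows are blue in nearly every column, while at Aucklandiae high BTG2 is above vehicle and AEN is near 0.

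BTG2 and AEN were the members called lower in nearly every group, and both were singled out with this result known, so their tests describe it and are not independent support. BTG2 (chromosome 1, 203305491 to 203309602, GRCh38) encodes an antiproliferative protein that recruits the mRNA deadenylase complex. The vehicle libraries had 12.39, 11.07 and 12.02 CPM of BTG2. In set 8 BTG2 was 6.79 at the lowest, 7.29 at the median and 8.54 CPM at the highest of 15 libraries. Set 9 had 6.14, 6.78 and 7.76 CPM over 18 libraries, and set 10 had 5.52, 7.45 and 9.09 CPM over 18. No library of these sets reached the lowest vehicle library. The log2 fold change of BTG2 lay between −0.89 and −0.49, and all 18 groups passed the test with 54 and with 52 libraries. Each call also held when any 1 library of either group was left out, with a highest adjusted p of 0.0432. The smallest fall was at the high dose of Soshiho, with 8.54 and 8.22 CPM (log2 fold change −0.49 ± 0.096 SE, adjusted p = 0.000705, edgeR).

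AEN (chromosome 15, 88621296 to 88632282) encodes a nuclease that p53 induces and that cuts DNA during apoptosis. AEN was 80.8, 80.9 and 88.7 CPM in the vehicle libraries. It was 63.1, 64.7 and 74.6 CPM (lowest, median, highest) in set 8, 56.9, 62.8 and 66.7 CPM in set 9, and 51.9, 59.5 and 62.9 CPM in set 10. These ranges did not overlap with vehicle either. AEN was called lower in 17 of 18 groups, with log2 fold changes down to −0.54. Soshiho high was the exception, at 72.3 and 74.6 CPM (log2 fold change −0.18, adjusted p = 0.0745, edgeR), and it passed with 52 libraries (adjusted p = 0.00584). The AEN call at Soshiho low was lost without Soshiho low replicate 3 (adjusted p = 0.116). At Yijin medium it was lost without vehicle replicate 3 or Yijin medium replicate 1, with a highest adjusted p of 0.0778, and the other 15 calls held.

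Within the replicated extracts doses were compared directly. Across the 12 comparisons of a high or medium dose with the low dose, BTG2 changed by −0.027 to 0.23 and AEN by −0.022 to 0.21 on the log2 scale, with no call at 54 libraries. With 52 libraries AEN was higher at the high than at the low dose of Soshiho (0.21, adjusted p = 0.0133, edgeR) and BTG2 again had no call. Both genes were already called lower than vehicle in every low-dose group. Of 17826 genes tested, 2 were called lower in all 18 groups with 54 libraries, 0.0112% of all, and 32 of 18228 (0.176%) with 52. BTG2 was 1 of the 2 and also 1 of the 32, and AEN was among the 32.

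**Figure D2:**
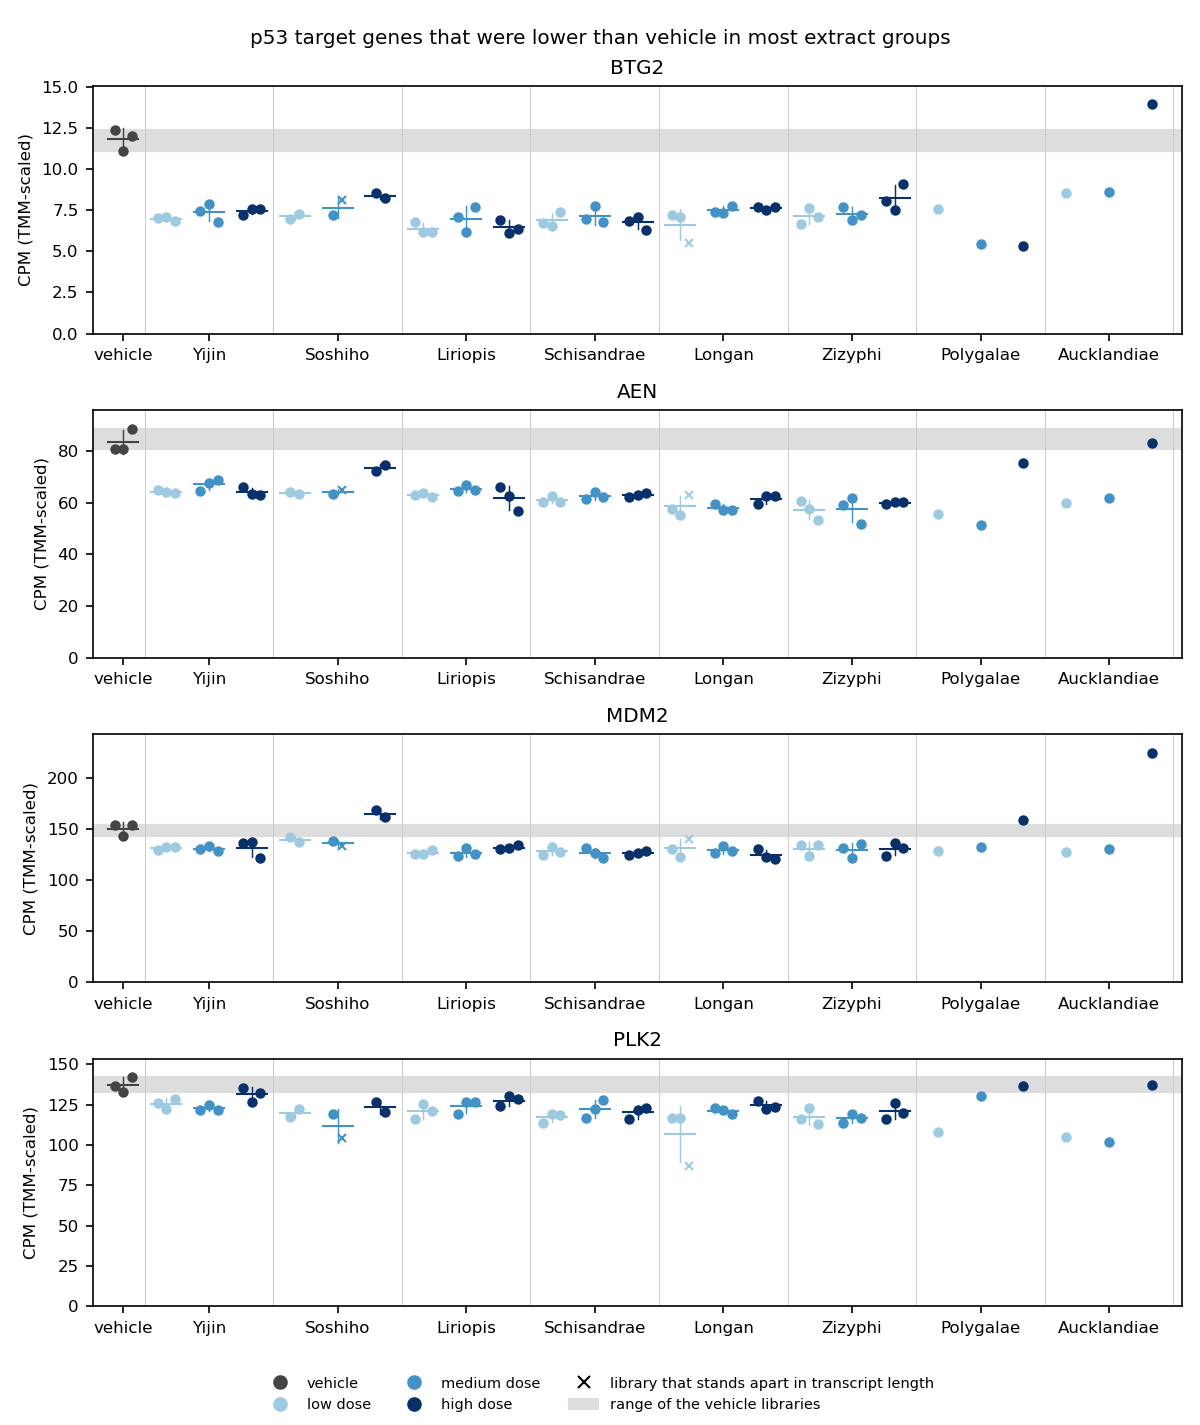
CPM of BTG2, AEN, MDM2 and PLK2 in each of 60 libraries (points), by extract and dose, with group means and SD as lines and bars and the grey band spanning the vehicle libraries. BTG2 and AEN points lie under the band in 56 of 57 extract libraries, the exception being Aucklandiae high, at 13.9 CPM for BTG2 and 83.1 CPM for AEN.

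Over all genes tested, the median gene was below every vehicle library in 14 of the 51 extract libraries of the replicated groups and above every vehicle library in 14, and 1887 genes (10.6%) were below in 40 or more. Among the p53 targets, BTG2, AEN and PPM1D were below in 51 of 51, PLK2 in 50, and MDM2 and TRIAP1 in 49. GADD45A was below in 47, and TNFRSF10B and SUSD6 in 46. CDKN1A, TNFRSF10A and PHLDA3 were below in 42 and FDXR in 41, and no other member reached 40. XPC was the member most often above every vehicle library, in 48 of 51.

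The promoter sequences of the members called most often are shown because their levels fell together in so many groups. They are bases upstream of the RefSeq start (GRCh38.p14, plus strand, 5′ to 3′) and hold no exon of the gene in GENCODE 29. The MDM2 stretch lies inside the annotated gene (68808176 to 68850686), at a start site downstream of its first exon. Capitals mark a match to the p53 response element, which here means a pair of half-sites of 10 bases, at most 3 bases apart, with at most 3 mismatches in all and each core C and G kept, on either strand.
BTG2, chr1:203305269-203305490: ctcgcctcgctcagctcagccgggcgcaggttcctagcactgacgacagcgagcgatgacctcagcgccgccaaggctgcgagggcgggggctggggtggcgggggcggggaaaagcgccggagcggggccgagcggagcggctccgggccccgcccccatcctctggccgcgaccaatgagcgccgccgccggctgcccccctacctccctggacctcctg
AEN, chr15:88621090-88621295: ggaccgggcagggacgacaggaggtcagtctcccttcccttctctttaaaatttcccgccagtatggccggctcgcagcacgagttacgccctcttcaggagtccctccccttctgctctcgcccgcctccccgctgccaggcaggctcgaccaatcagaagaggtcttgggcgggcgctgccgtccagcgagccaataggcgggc
MDM2, chr12:68808767-68809001: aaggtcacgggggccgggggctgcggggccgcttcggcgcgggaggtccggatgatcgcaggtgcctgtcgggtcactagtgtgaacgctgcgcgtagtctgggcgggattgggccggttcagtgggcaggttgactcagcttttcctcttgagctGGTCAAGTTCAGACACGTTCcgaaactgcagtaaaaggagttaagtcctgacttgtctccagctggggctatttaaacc
The BTG2 window held no match. The MDM2 stretch shows its match, and that of AEN lies just past the printed stretch, inside the first exon of GENCODE 29 and upstream of the RefSeq start.

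Over windows of 250 bases before to 50 after the start, 9 of the 26 members with a RefSeq promoter held a match to the p53 response element in at least 1 of their windows. Among all 27305 genes with such a window 5.77% did. Counted by window, 10 of the 36 member windows and 4.75% of all 35116 held one. With at most 2 mismatches the members numbered 4, beside 1.23% of genes, and their windows 5, beside 0.971%. Those 4 sites are shown 5′ to 3′ on the gene's strand, which is the plus strand for each, with the 4 core bases of each half-site in capitals.
DDB2, chr11:47214979-47214999: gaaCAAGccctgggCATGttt
FAS, chr10:88991309-88991328: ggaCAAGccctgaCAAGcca
MDM2, chr12:68808923-68808942: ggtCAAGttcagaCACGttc
AEN, chr15:88621306-88621325: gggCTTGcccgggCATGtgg
The DDB2 site had 0 mismatches and a spacer of 1 base, and it lay at bases 6 to 26 after the start. The FAS, MDM2 and AEN sites had 2 mismatches each and no spacer, and lay upstream of the RefSeq start. The other matches, with 3 mismatches, were in FDXR, GDF15, PLK2, PMAIP1 and RPS27L. The cAMP response element TGACGTCA, searched on both strands, was in 1 member (PPM1D) and in 2.25% of genes, and the ATF4 composite letters TGATGNAAT were in 0 members and in 1.22% of genes. A match says only that the letters are present. The members were chosen as established p53 targets, so their share beside that of all genes is not independent support.

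The p53 regulators MDM2 and PPM1D were lower by less than BTG2. MDM2 was 154, 143 and 154 CPM in vehicle. It was 121, 134 and 169 CPM (lowest, median, highest) in set 8, 121, 127 and 134 CPM in set 9, and 121, 130 and 141 CPM in set 10. The ranges of sets 9 and 10 lay wholly below vehicle, and that of set 8 overlapped it through the high dose of Soshiho. MDM2 was called lower in 11 groups (log2 fold change −0.27 to −0.20), all of them in sets 9 and 10. Of these, 9 calls were lost without vehicle replicate 1 and also without vehicle replicate 3, with a highest adjusted p of 0.217, and 2 held throughout. With 52 libraries MDM2 was lower in 15 groups. Its RSEM counts were not whole numbers in any of 60 libraries. Of its exon bases 5.91% overlap an antisense gene and 3.3% a processed pseudogene on the same strand, so its level is uncertain.

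PPM1D, the phosphatase WIP1 that dephosphorylates p53, was 25.0, 25.4 and 25.4 CPM in vehicle and 11.7 to 23.8 CPM in the 51 other libraries of the fit. It was called lower in 1 group with 54 libraries and in 16 with 52 (−0.40 to −0.20). MDM4, which encodes a partner of MDM2 that inhibits p53, was called lower in 5 groups with 52 libraries and in none with 54, where its only call was higher at Longan low. TP53INP1, an activator of the p53 response, had no call against vehicle. CCNG1, which encodes cyclin G1, and RPS27L, a ribosomal protein paralogue that acts on MDM2, were called only in groups that hold Longan low replicate 3.

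Among the cell cycle brakes, CDKN1A (p21), the cyclin-dependent kinase inhibitor through which p53 arrests cells in G1, moved in both directions. It was 86.3, 89.1 and 81.5 CPM in vehicle, 69.2, 79.9 and 103 CPM (lowest, median, highest) in set 8, 67.8, 75.2 and 83.4 CPM in set 9, and 71.3, 75.8 and 89.7 CPM in set 10. All 3 sets overlapped with vehicle. CDKN1A was lower at Schisandrae high, with 70.8, 76.3 and 67.8 CPM (log2 fold change −0.26 ± 0.065 SE, adjusted p = 0.0363, edgeR). This call was lost without any 1 of the vehicle libraries, Schisandrae high replicate 1 or replicate 3, with a highest adjusted p of 0.295. With 52 libraries CDKN1A was lower in 11 groups and higher in 1, Soshiho high.

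GADD45A, a DNA damage inducible stress sensor, was 14.3, 15.5 and 13.9 CPM in vehicle. It was lower in 11 groups with 52 libraries and in none with 54. PLK2, a polo-like kinase, was 136, 133 and 142 CPM in vehicle, and 104 to 135, 114 to 130 and 87.0 to 128 CPM in sets 8, 9 and 10. PLK2 was called lower in 4 groups (−0.36 to −0.22) and in 15 with 52 libraries. Of the 4 calls, 3 were lost without vehicle replicate 1 or vehicle replicate 3, and Soshiho medium was also lost without Soshiho medium replicate 3 (highest adjusted p = 1.0, edgeR). PLK3, its stress-responsive relative, was called against vehicle only at Longan low.

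Among the death receptors, TNFRSF10A, the TRAIL receptor DR4, was 25.2, 25.2 and 23.2 CPM in vehicle and 17.7, 20.0 and 21.6 CPM (lowest, median, highest) over the 18 libraries of set 10, with no overlap. It was 16.3 to 24.8 CPM in set 8 and 20.6 to 24.9 CPM in set 9, both overlapping with vehicle. TNFRSF10A was called lower in all 6 Longan and Zizyphi groups and at Soshiho medium (−0.38 to −0.26). None of the 7 calls held in every fit with 1 library left out, and 6 of them were lost without vehicle replicate 1 and 6 without replicate 2. With 52 libraries the 6 groups of set 10 were called (−0.37 to −0.29). Soshiho medium had 21.4 CPM in replicate 2 and 16.3 CPM in replicate 3, the library that stands apart. Its log2 fold change was −0.38 with both libraries and −0.195 with replicate 2 alone, which leaves the group without a replicate. TNFRSF10B was lower in 9 groups with 52 libraries (−0.25 to −0.11), and FAS and EDA2R in none. A share of 9.01% of the TNFRSF10A exon bases overlaps other genes, and its counts were not whole in 57 libraries.

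ZMAT3, an RNA-binding zinc finger protein, was 23.2, 20.7 and 24.6 CPM in vehicle. It was 16.8, 16.9 and 19.1 CPM at Zizyphi low and 18.95, 15.14 and 19.87 CPM at Zizyphi medium, both below vehicle and both called (−0.37 and −0.34). Longan low was called as well, at 17.3, 16.8 and 23.3 CPM (−0.26). All 3 calls were lost without vehicle replicate 1 or 3, with a highest adjusted p of 0.308 (edgeR). TRIAP1, a small inhibitor of apoptosis, was 28.2, 29.5 and 28.5 CPM in vehicle and 20.9, 21.5 and 19.1 CPM at Zizyphi medium (−0.48, adjusted p = 0.0324), a call lost without any 1 library of either group (highest adjusted p = 0.127). In 16 groups TRIAP1 was lower with 52 libraries. PHLDA3, an inhibitor of AKT signalling, had no call with 54 libraries and was lower in 11 groups with 52 (−0.47 to −0.22). A same-strand gene overlaps 19.1% of the PHLDA3 exon bases, and its counts were not whole in 5 libraries. BAX, the pore-forming effector of mitochondrial apoptosis, had no call against vehicle with 54 libraries and was lower in 2 groups with 52.

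Members in DNA repair and metabolism showed few calls. XPC and DDB2 both recognise damaged bases, POLH is a polymerase that copies past lesions, and RRM2B supplies deoxynucleotides. XPC was 49.2 to 49.9 CPM in vehicle and had no call with 54 libraries. It was higher in 8 groups with 52 (0.11 to 0.26), but 23.8% of its exon bases overlap an antisense gene and its counts were not whole in any library. TIGAR, which lowers glycolytic flux, and SPATA18, which acts in mitochondrial quality control, had no call in any comparison in either fit. For TIGAR, 42.6% of the exon bases overlap a protein-coding gene on the same strand, though its counts were whole in every library. TP53I3, an oxidoreductase, was lower in 3 groups and FDXR, a mitochondrial reductase, in 6, in both cases with 52 libraries alone. The secreted stress cytokine GDF15 was lower in 9 groups with 52 libraries (down to −0.47), and SUSD6 in 5.

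At the high dose of Soshiho 7 of the p53 targets rose. CDKN1A was 102 and 100.3 CPM there (log2 fold change 0.24 ± 0.072 SE, adjusted p = 0.0367, edgeR). GADD45A was 20.6 and 19.8 CPM (0.48 ± 0.12, adjusted p = 0.0105), above its vehicle libraries. GDF15 was 36.8 and 32.7 CPM against 16.9, 18.7 and 18.2 CPM in vehicle (0.96 ± 0.23, adjusted p = 0.00649). In each the libraries did not overlap with vehicle.

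The other 4 called members promote apoptosis. PMAIP1 (NOXA), a BH3-only protein, was 14.5 and 16.1 CPM against 9.64, 9.62 and 10.7 CPM in vehicle (0.62 ± 0.14, adjusted p = 0.0035, edgeR). BBC3 (PUMA), another BH3-only protein, was 7.35 and 7.61 CPM against 4.39, 5.42 and 4.52 CPM (0.65 ± 0.17, adjusted p = 0.0122). Both BH3-only genes lay above every vehicle library. FAS, a death receptor, was 12.4 and 11.6 CPM against 9.33, 9.14 and 9.11 CPM (0.39 ± 0.10, adjusted p = 0.0146). TNFRSF10B, the TRAIL receptor DR5, was 157 CPM in both libraries against 125, 122 and 125 CPM (0.33 ± 0.091, adjusted p = 0.0199). The death receptors likewise did not overlap with vehicle, and 8.93% of the FAS exon bases overlap a neighbouring gene. MDM2 was 169 and 161 CPM, also above vehicle, and did not pass the test with 54 libraries (0.14, adjusted p = 0.214). BTG2 was lower at the same dose.

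The 8 calls at Soshiho high rested on few libraries. With either Soshiho high library left out 2 were called, with vehicle replicate 3 left out 3, and with vehicle replicate 1 or 2 left out 6. With 52 libraries the higher members were 12, MDM2, EDA2R, XPC, DDB2 and FDXR having joined the 7.

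**Figure D3:**
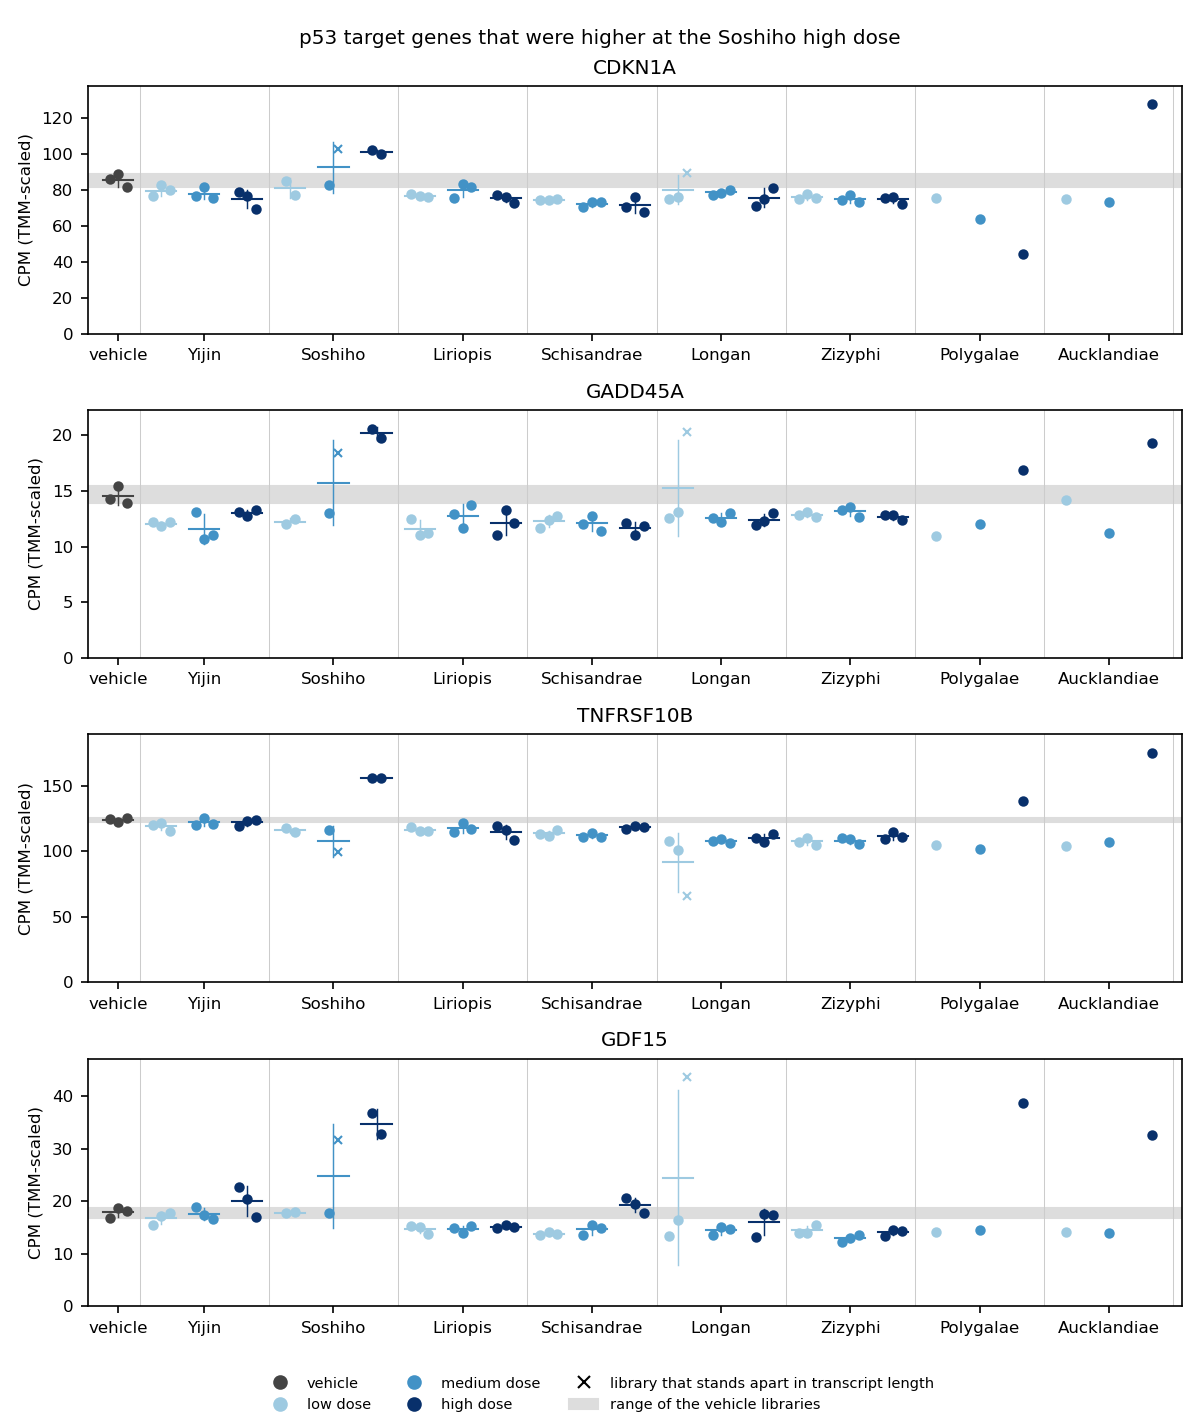
CPM of CDKN1A, GADD45A, TNFRSF10B and GDF15 in each of 60 libraries (points), by extract and dose, with group means and SD as lines and bars and the grey band spanning the vehicle libraries. Both Soshiho high points lie above the band in each panel, as does Aucklandiae high, and crosses mark the 2 libraries that stand apart in transcript length.

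Within set 8, the high dose of Soshiho was compared with its low dose, at which GADD45A was 12.1 and 12.5 CPM, TNFRSF10B 118 and 115 CPM, and GDF15 17.8 and 17.8 CPM. Of the 32 members 6 rose and 0 fell, beside 1.17% of all genes higher. GADD45A rose by 0.72 ± 0.13 (log2, SE, adjusted p = 0.000809, edgeR), GDF15 by 0.97 ± 0.26 (adjusted p = 0.0398) and PMAIP1 by 0.57 (adjusted p = 0.0488). TNFRSF10B rose by 0.43 (adjusted p = 0.0142), CDKN1A by 0.32 (adjusted p = 0.02) and MDM2 by 0.25 (adjusted p = 0.0345). These 6 genes span arrest, apoptosis, secretion and p53 feedback. GADD45A kept its call when any 1 library was left out. The count of calls fell to 1 without Soshiho high replicate 2, high replicate 3 or low replicate 3, and to 2 without low replicate 2. With 52 libraries 13 rose, beside 5.02%, and 0 fell.

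Yijin, the other water extract of set 8, had no member called between its doses. The high dose of Yijin had 79.1, 76.9 and 69.2 CPM of CDKN1A and 13.2, 12.8 and 13.3 CPM of GADD45A. Against Soshiho high, 5 members were lower in Yijin high and 0 higher, beside 0.87% of all genes lower. They were CDKN1A (−0.43, adjusted p = 0.000187, edgeR), GADD45A (−0.63, adjusted p = 0.00139), MDM2 (−0.33, adjusted p = 0.000553), PMAIP1 (−0.56, adjusted p = 0.0302) and TNFRSF10B (−0.36, adjusted p = 0.0344). The number of calls fell to 1 without Soshiho high replicate 2 and to 3 without any other library of the 2 groups, and CDKN1A kept its call throughout. With 52 libraries 12 members were lower in Yijin high and 1 was higher, beside 4.5% and 3.87%. The test of the difference between the extracts' high-against-low changes called 0 members with 54 libraries by edgeR, 10 at an unadjusted p below 0.05, and 1 by DESeq2. Of all genes 0.286% passed that test with 54 libraries. With 52 it called 8 members, all with a smaller rise in Yijin, beside 1.61% of all genes in that direction.

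Other lists moved at Soshiho high as well, where 3.02% of all genes were higher and 2.05% lower. Of 10 ATF4 and CHOP genes of the integrated stress response, 9 rose (median log2 fold change 0.98). That list and the members were chosen by symbol and share no gene, which does not show that their responses are separate. Of 14 immediate early genes 5 rose. Of 24 cell cycle genes that p53 represses through p21 and the DREAM complex 5 fell and 0 rose, with a median of −0.20 beside 0.0034 over all genes. They included the mitotic cyclin CCNB1 (−0.47, adjusted p = 8.22e-07, edgeR), AURKA (−0.44), CDC20 (−0.40) and CCNB2 (−0.28). Of 38 further p53 targets 3 rose and 1 fell. SESN2, which restrains mTORC1 (0.94, adjusted p = 1.43e-09), and ORAI3 (0.71) were among those that rose, and IGFBP3 fell by 0.30. In the list of 17 p53 pathway genes, PPP1R13L, an inhibitor of p53, rose (0.58 ± 0.11, adjusted p = 0.00061). Fibroblast markers, in vehicle mostly COL1A1 and COL3A1, summed to 30.8 and 27.6 CPM at Soshiho high and to 35.2 to 36.4 CPM in vehicle. The part of these moves in the p53 target result was not tested.

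In the other extracts few of these genes differed between doses. Between the doses of Yijin, Liriopis, Schisandrae and Zizyphi, and between Soshiho medium and low, 0 of 32 members were called with 54 libraries by edgeR. Of all genes, 0.146% were called at Yijin high against low, 0.028% at Zizyphi high against low, 0.00561% at Schisandrae high and at Soshiho medium against low, and 0% in the other 5 of these comparisons. At an unadjusted p below 0.05, 12 members stood out at Soshiho medium against low, a comparison that holds a library that stands apart, and 0 to 2 in each of the others. DESeq2 called 2 members at Soshiho medium against low and 0 in each of the others. Soshiho medium against low has only 1 medium library in the fit of 52 and is left out here. In the other comparisons 0 members were called with 52 libraries, Schisandrae high against low excepted. Of all genes, 0.987% were called at Yijin high, 0.00549% at Yijin medium, 1.15% at Zizyphi high and 0% in the rest. The exception with 52 libraries was Schisandrae, where PHLDA3 (0.21, adjusted p = 0.0339, edgeR) and GDF15 (0.48, adjusted p = 0.00052) were higher at the high than at the low dose, beside 0.911% of all genes higher. Both were also lower at Liriopis high than at Schisandrae high (−0.21 and −0.35), beside 1.77% of all genes lower. With 54 libraries that comparison called 0 members, beside 0.0561%. Longan high and Zizyphi high differed in 0 members, beside 0.0112% with 54 and 0.719% with 52 libraries. The tests of a difference between the extracts' dose changes called 0 members in set 9 (beside 0% and 0.318%) and in set 10 (beside 0.0112% and 0.137%) with 54 and 52 libraries. At an unadjusted p below 0.05 the set 9 test held 0 and 5 members and the set 10 test 10 and 1, and DESeq2 called 0 in either.

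Of the 17 calls at Longan low, 8 were lost without its library 3, which stood apart in transcript length, and 9 held. The 4 members called higher (RPS27L, DDB2, MDM4 and PLK3) were among the 8, with CCNG1, EDA2R, POLH and PPM1D. RPS27L was 172, 156 and 455 CPM over the 3 libraries and SUSD6 10.5, 10.3 and 3.10 CPM. GDF15 was 13.4, 16.4 and 43.6 CPM and CCNG1 91.6, 83.8 and 45.5 CPM. In each gene library 3 lay far from the others. RPS27L went from 0.63 above vehicle (adjusted p = 0.0101, edgeR) to −0.034 without that library. The same library carried the comparisons within Longan, where 4 members were higher and 4 lower at the high than at the low dose, beside 3.79% and 15.0% of all genes, and 4 and 5 at the medium dose, beside 3.36% and 14.7%. With 52 libraries both counts were 0, beside 0.0878% of all genes at the high and 0% at the medium dose. RRM2B (−0.43), SUSD6 (−0.70) and TNFRSF10B (−0.44) were lower than vehicle at Longan low, and each passed also without library 3 (−0.27, −0.34 and −0.25 with 52 libraries).

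Aucklandiae had 1 library per dose, so its values have no test and no replicate check. Ratios are log2 of CPM plus 1 over the vehicle mean plus 1, and 1.5-fold is the threshold for counts. At the high dose 7 of 32 members were above 1.5-fold and 0 below, beside 5.26% and 4.00% of all genes. EDA2R, a death receptor of the TNF family, was 30.2 CPM against 14.1 to 15.6 CPM in vehicle (log2 ratio 1.00), and BBC3 was 10.0 CPM (0.93). GDF15 was 32.6 CPM (0.83), FAS 15.6 CPM (0.71) and BAX 167 CPM (0.67). DDB2, whose promoter held the site with 0 mismatches, was 76.0 CPM (0.62), and TP53INP1 14.9 CPM (0.61). These genes span death receptors, mitochondrial apoptosis and repair, and each lay above every vehicle library.

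Just inside the threshold stood TP53INP1 and just outside it MDM2 (225 CPM, 0.58) and CDKN1A (128 CPM, 0.57). PMAIP1 went the other way from BBC3, at 7.72 CPM (−0.33), below every vehicle library. The median over the 32 members was 0.24, beside 8e-04 over all genes. At the medium and low doses 0 members passed 1.5-fold in either direction, beside 1.58% of all genes higher and 2.03% lower (medium) and 2.01% and 2.19% (low). The member medians there were −0.19 and −0.18.

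The low-dose library of Aucklandiae is in the same set as the high-dose library. Against it, 11 members were above 1.5-fold at the high dose and 0 below, beside 3.95% and 2.97% of all genes. EDA2R (log2 ratio 1.19) and GDF15 (1.16) led, followed by TP53INP1 (0.84), MDM2 (0.82) and CDKN1A (0.76). BBC3, TNFRSF10B, FDXR, BAX, FAS and BTG2 lay between 0.75 and 0.65. BTG2 was 8.54, 8.58 and 13.9 CPM at the low, medium and high dose, so the high dose alone lay above the vehicle range. AEN was 59.7, 61.8 and 83.1 CPM, within the vehicle range at the high dose alone. The median ratio was 0.42 over the members and 0.01 over all genes.

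**Figure D4:**
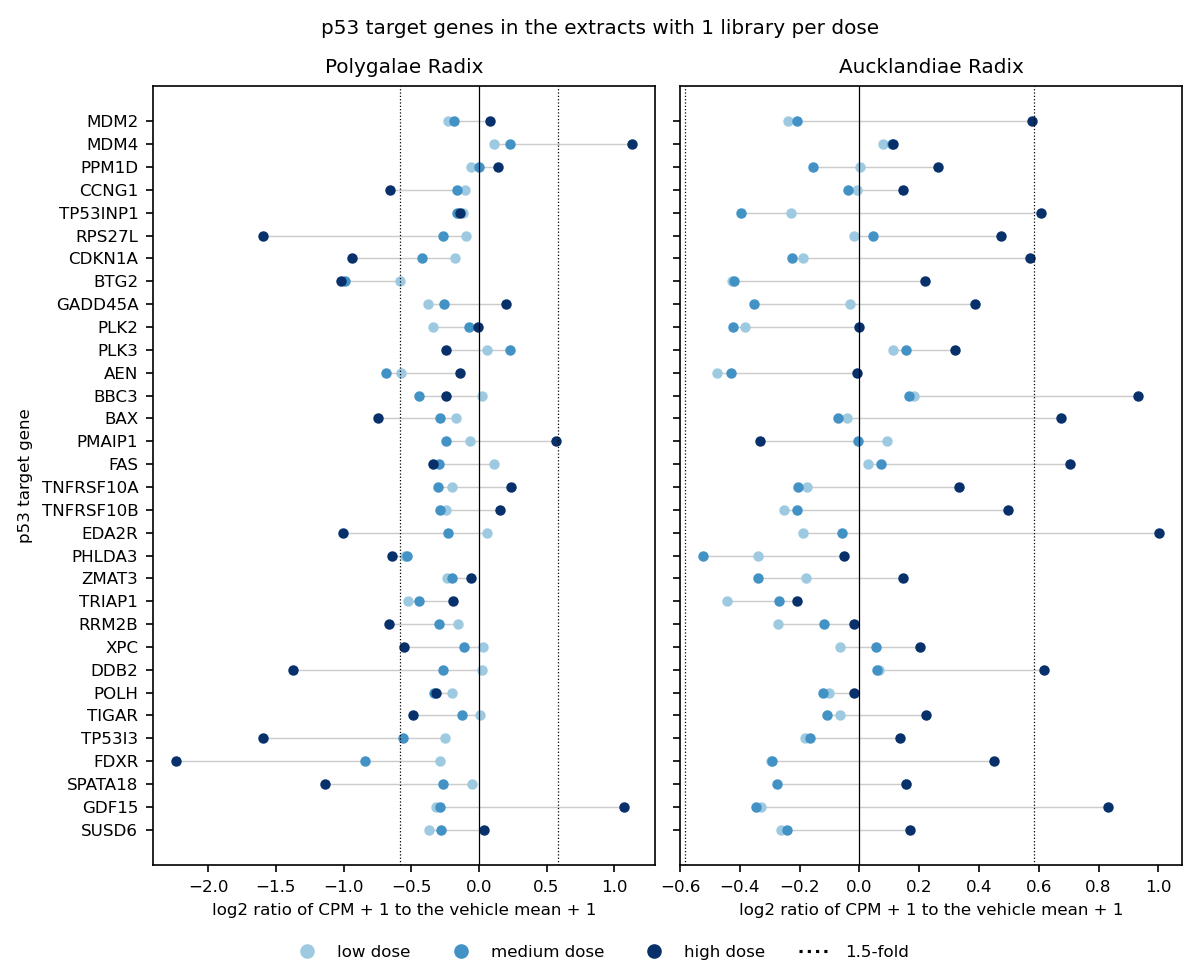
Log2 ratio of CPM plus 1 to the vehicle mean plus 1 for each of the 32 p53 target genes in Polygalae (left) and Aucklandiae (right), with 1 point per dose and dotted lines at 1.5-fold; the horizontal scales differ. At the Aucklandiae high dose 7 members are past the line on the right, and at the Polygalae high dose 12 are past the line on the left.

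Other genes moved with the Aucklandiae high library, in which 5.26% of all genes were above 1.5-fold and 4% below. Of 24 genes that p53 represses through p21 and DREAM, 15 were below 1.5-fold and 0 above (median −0.71). CCNB1 was 95.3 CPM against a vehicle mean of 197 CPM, and BIRC5 (survivin), an inhibitor of apoptosis, was 84.7 against 174 CPM. Of 38 further p53 targets 5 were above, ACER2, ORAI3, PGF and SFN among them, and IGFBP3 was below (−0.68). PPP1R13L was above (0.82) and ATM below (−0.80). Of 10 ATF4 and CHOP genes 0 were above and 1 was below. The 8 A549 and lung epithelial markers summed to 10379 CPM, against 17177 to 17533 in vehicle. Leukocyte markers, in vehicle mostly CD68, summed to 35.5 CPM, the highest of 60 libraries, against 15.0 to 16.8 CPM in vehicle. The defining alveolar type 2 genes were at 0. The part of these genes and markers in the result was not tested. In bulk RNA a change in the share of cells and a change in RNA per cell cannot be told apart.

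Polygalae, the other extract of set 11, had more members below vehicle than above it at the high dose, again in 1 library with no test. There 2 members were above 1.5-fold and 12 below, beside 13.8% and 17.3% of all genes. FDXR was 6.47 CPM against 33.7 to 34.9 CPM in vehicle (log2 ratio −2.24), RPS27L 54.8 CPM (−1.60), TP53I3 27.6 CPM (−1.59) and DDB2 18.4 CPM (−1.37). SPATA18, BTG2, EDA2R, CDKN1A, BAX, RRM2B, CCNG1 and PHLDA3 followed, from −1.14 to −0.64. MDM4 was 99.6 CPM (1.13) and GDF15 38.7 CPM (1.07). BTG2 was 7.55, 5.45 and 5.34 CPM at the low, medium and high dose, and AEN 55.6, 51.4 and 75.5 CPM, all below vehicle. At the medium dose 3 members were below and 0 above, beside 3.1% and 2.14% of all genes, and at the low dose 0 and 0, beside 1.15% and 1.78%. Against the low dose 3 members were above and 7 below at the high dose, beside 12% and 16.6%. The A549 marker sum was 3025 CPM in the high-dose library, the lowest of 60. Its part in the members' values was not tested.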

How the data were processed

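The authors deposited 1 table of RSEM expected counts per gene, not scaled for depth or length. The build was hg38 and the tools were RSEM 1.3.3, STAR 2.7.3a, Trim Galore 0.6.5 and FastQC 0.11.9, per the submitters' processing notes. Neither annotation release nor strand setting is stated there, so overlapping and antisense genes cannot be separated. Libraries were read as 100 bp pairs from a directional kit, per the labels' protocols. Of the values 10.48% were not whole, and all were rounded. Replicates of a group differed beyond sampling noise (a chi-square of at least 1.827 per degree of freedom), and genes under about 1 CPM have few counts.

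One edgeR 4.0.16 fit in R 4.3.3 covered the 54 libraries of 19 replicated groups (quasi-likelihood F test, robust, TMM factors, filterByExpr), and 17826 genes were tested in 18 contrasts with vehicle, 12 within an extract, 3 between extracts of a set at the high dose and 3 differences of differences. Calls need a Benjamini-Hochberg adjusted p below 0.05 over all genes tested in the contrast, and every adjusted p in the text is from this test unless another tool is named. Errors of CPM are SD and errors of log2 fold changes are SE. Polygalae and Aucklandiae, with 1 library per dose, got ratios with a pseudocount of 1 CPM and no test. The members and lists were chosen with earlier results of these data known. Members are named in full if they are BTG2, AEN, MDM2 or CDKN1A or were called in at least 2 of 33 contrasts, and from other lists up to 4 called genes with the smallest adjusted p. Some genes that this rule names are not reported here. Alternatives were the fit of 52 libraries, RLE factors, no filter, replicate blocks, DESeq2 1.42.0, each library left out, other pseudocounts (0.25 and 5 CPM) and the low-dose libraries as reference. When a group of 2 lost a library, the other was assumed to vary like the other groups. Coordinates are from GENCODE 29 and promoters from RefSeq. The fit was tested on simulated data.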

Additional observations from a re-analysis of the deposited data

Results flagged for a closer look

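With 52 libraries, the rise from the low to the high dose differed between Yijin-tang and Soshiho-tang for 8 members, by a test of the difference itself (edgeR's quasi-likelihood test, adjusted over 18228 genes). The difference is Yijin-tang minus Soshiho-tang on the log2 scale, and a negative value means a larger rise in Soshiho-tang. For the arrest genes it was −0.4066 for CDKN1A (adjusted p = 0.000242) and −0.6072 for GADD45A (adjusted p = 0.00022). For the apoptosis genes it was −0.514 for PMAIP1 (adjusted p = 0.00335) and −0.3902 for TNFRSF10B (adjusted p = 6.29e-07). MDM2, the feedback ligase, differed by −0.242 (adjusted p = 0.0403), the repair gene DDB2 by −0.2644 (adjusted p = 0.0273), the mitochondrial reductase FDXR by −0.4117 (adjusted p = 0.00497) and the secreted GDF15 by −0.7034 (adjusted p = 0.000421). With 54 libraries none of the 8 passed by edgeR.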

How the results depend on the processing

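BTG2 was called lower than vehicle in all 18 groups with 52 libraries, RLE factors, no filter, a replicate block, DESeq2 and each library left out. Of 108 single-member calls, DESeq2 kept 108, RLE factors ended 6, and the fit without any filter kept 57 and the fit of 52 libraries 82, with 22 lost and 4 of opposite sign. Of 617 fits with 1 library left out 386 kept the call. The fits of 52 libraries gave 6, 8 and 9 called members in Yijin-tang (high, medium, low), 17 and 6 in Soshiho-tang (high, low), 11, 8 and 11 in Liriopis, 10, 12 and 13 in Schisandrae, 14 and 13 in Longan (high, medium) and 15, 17 and 18 in Zizyphi. Within and between extracts they gave 13 for Soshiho-tang high against low, 2 for Schisandrae high against low, 0 and 0 for Longan high and medium against low, 13 for Yijin-tang against Soshiho-tang, 2 for Liriopis against Schisandrae and 8 for the difference of differences in set 8. The 4 values of opposite sign rested on Longan low replicate 3. With 52 libraries and without that library alone they were −0.0338 and −0.0334 for RPS27L at Longan low, 0.0407 and 0.0397 for RPS27L at Longan medium against low, 0.1162 and 0.1125 for GDF15 at Longan high against low, and 0.0606 and 0.0594 for BAX at Longan medium against low. The far ends of their ranges with another library left out were 0.8987, −0.8906, −0.8803 and −0.6482 in that order.

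Without a filter on low counts, members called against vehicle numbered 1 at Yijin-tang medium, 5 and 2 at Soshiho-tang high and medium, 2 at Schisandrae high, 2 at Longan high, and 2 and 3 at Zizyphi high and medium, and within extracts 1 for Soshiho-tang high against low and 0 for Longan high and 0 for Longan medium against low. DESeq2 called 2 members for Soshiho-tang medium against low and 1 in the difference of differences of set 8. Correlations of same-numbered libraries' deviations ran from −0.634 to 0.806 (median 0.01, 462 pairs), and 44 of 123 within a set were over 0.1. Among the comparisons made, every number was over 0.1 only for Zizyphi medium against low (0.264, 0.41 and 0.361), where either block gave 0 calls, as did the fit without one. A replicate block kept 102 of 108 calls and lost 6. A block of library set by replicate number gave 5 calls for Longan high against low, 4 for Longan medium against low and 3 for Yijin-tang against Soshiho-tang. With the low-dose libraries as reference, 1 member passed 1.5-fold at Polygalae medium and 13 at Aucklandiae high. A pseudocount of 0.25 CPM gave 2 at Polygalae low and one of 5 CPM gave 4 at Aucklandiae high. The cause of these moves was not tested.

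With 1 library left out, called members ran from 1 to 2 at Yijin-tang medium, 2 to 6 at Soshiho-tang high, 2 to 25 at Soshiho-tang medium (25 without its replicate 2, leaving the library that stands apart) and 1 to 2 at Soshiho-tang low. They ran from 2 to 3 at Liriopis medium and low, 2 to 4 at Schisandrae high, 2 to 3 at Schisandrae medium and low, 3 to 4 at Longan high, 2 to 4 at Longan medium, 11 to 21 at Longan low, 2 to 3 at Zizyphi high, 2 to 5 at Zizyphi medium and 3 to 5 at Zizyphi low. Within extracts they ran from 1 to 2 for Soshiho-tang high against low, 0 to 18 for Soshiho-tang medium against low and Longan high against low, 0 to 19 for Longan medium against low, 1 to 3 for Yijin-tang against Soshiho-tang, and 0 to 10 for the difference of differences in set 10.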
